A study of Mus musculus with 1536 samples.

Results

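The genes described here encode the respiratory chain of mitochondria, as read in single lymphatic endothelial cells (LECs) of the mouse nasopharynx. They were chosen by symbol alone, from the prefixes mt-Nd, mt-Co, mt-Cyt and mt-Atp for genes of the mitochondrial genome and Nduf, Uqcr, Sdh, Cox4i, Cox5, Cox6, Cox7 and Cox8 for genes of the nucleus. Of 23168 genes in the expression matrix, 92 carried such a symbol, 13 of them mitochondrial and 79 nuclear. The 82 that were found, with at least 1 read, in 10% or more of the cells were kept, comprising all 13 mitochondrial and 69 nuclear genes. The 3 genes just above that limit were the complex I assembly factors *Ndufaf5*, *Ndufaf1* and *Ndufaf7*, found in 10.9%, 12.8% and 20.9% of cells, and the 3 just below it were *Sdhaf1*, *Sdhaf3* and *Ndufaf6*, at 6.89%, 6.53% and 6.29%. The other 7 below it were 5 tissue isoforms or relatives described later and the pseudogenes *Ndufab1-ps* and *Uqcrh-ps1*, found in 12 and 5 cells.

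All cells came from the nasopharyngeal mucosa of C57BL/6 mice of both sexes, aged 10 to 12 weeks, and were sorted one per well as CD31+ PDPN+ cells before Smart-seq3, a full-length RNA sequencing method. Tissue of 30 mice was pooled, the column names give neither mouse nor plate, and the cells, which filled 54.8% of the wells listed, therefore count as 1 sample without a replicate, so spreads over cells are descriptions and no test was made. Reads per cell ran from 7433 to 3524358 with a median of 350746. The markers of LECs were present throughout, since every cell held at least 3 of the 5 LEC markers, with a summed level of 7.75 to 119.1 reads per 10000. No cell held 3 markers of mural cells or epithelium, whereas 2 cells held 3 fibroblast markers and 4 held 3 of blood endothelium. Of the defining markers, 1 of 6 for mural cells, 1 of 3 for muscle and 2 of 4 for immune cells were at 0 in all cells. No cell could therefore hold 3 markers of striated muscle or immune cells, and this count says nothing of them. The immune marker *Cd68* was found in 15.7% of cells and *Lyz2* in 7.96%. Summed immune markers reached 262.2 reads per 10000 in the highest cell. Cells over 10% in mitochondrial reads had been removed by the authors, which caps the mitochondrial genes from above.

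Oxidative phosphorylation passes electrons from NADH and succinate through complexes I to IV to oxygen, and complex V, the ATP synthase, uses the resulting proton gradient. The subunits come from both genomes: the mitochondrial genome encodes core subunits of complexes I, III, IV and V, and the nucleus encodes the rest, all of complex II and the assembly factors. Endothelial cells are known to draw much of their ATP from glycolysis, and LECs are known to depend on mitochondrial respiration for the upkeep of *Vegfr3* and *Prox1* expression.

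Some mitochondrial messages share their sequence with copies of mitochondrial DNA in the nucleus. A block of 7 annotated unprocessed pseudogenes on the minus strand, at chr1:24611535-24616197 (GRCm38), repeats a stretch of the mitochondrial genome. In *mt-Co2*, *mt-Co3*, *mt-Atp6*, *mt-Nd3* and *mt-Nd4l*, between 97.8% and 99.9% of all runs of 75 bases were also found in transcripts of other genes. The share was 61.5% in *mt-Nd4*, 39.8% in *mt-Co1*, 5.71% in *mt-Nd2* and 1.66% in *mt-Nd5*, and no run was shared in *mt-Cytb*, *mt-Nd1*, *mt-Nd6* and *mt-Atp8*. The first 90 bases of *mt-Co2* (chrM:7013-7102, plus strand), a catalytic subunit of complex IV, and of its copy *Gm28661* (chr1:24615476-24615565, minus strand) show why no read that lies within them can be told apart. The first 60 bases of *mt-Nd3* (chrM:9459-9518) differ from *Gm28438* (chr1:24613060-24613119) by T3C, counted from the first base of the message, and 60 bases within *mt-Co1* (chrM:6381-6440), starting where *Gm29216* begins (chr1:24616138-24616197), differ from it at 6 bases, the last of them A1066T. Capitals mark the bases that differ within each pair.
mt-Co2: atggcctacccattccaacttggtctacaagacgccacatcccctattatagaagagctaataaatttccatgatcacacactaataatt
Gm28661: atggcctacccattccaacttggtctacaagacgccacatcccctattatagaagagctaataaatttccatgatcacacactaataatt
mt-Nd3: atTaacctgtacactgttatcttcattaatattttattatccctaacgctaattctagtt
Gm28438: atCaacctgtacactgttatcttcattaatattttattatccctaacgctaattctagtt
mt-Co1: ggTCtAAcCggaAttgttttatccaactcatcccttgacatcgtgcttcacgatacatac
Gm29216: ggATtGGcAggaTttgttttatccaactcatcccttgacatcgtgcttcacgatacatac

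Levels are given as mean reads per 10000 reads of a cell, with the SD over all cells, and levels of different genes are compared only per kilobase of exon. The mitochondrial messages spanned more than 3 orders of magnitude on the per-kilobase scale. *mt-Cytb*, the mitochondrial subunit of complex III, was highest, with 43.9 ± 30.2 reads per 10000, a median cell of 37.3, a highest cell of 273.4 and 38.4 per kilobase. *mt-Co1*, the catalytic core of complex IV, followed with 41.8 ± 28.4 reads per 10000 and 27.1 per kilobase. Both messages and *mt-Nd1* were found in every cell. Among the mitochondrial subunits of complex I, the complex that takes electrons from NADH, *mt-Nd1* stood at 20.8 per kilobase, *mt-Nd2* at 7.99 and *mt-Nd4* at 6.65. *mt-Nd3* stood at 2.59, *mt-Nd5* at 2.56 and *mt-Nd6* at 0.610. *mt-Nd6* is the only one of the 13 that is read from the other strand of the mitochondrial genome.

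The lowest values belonged to 4 messages with a nearly complete nuclear copy. *mt-Co3* stood at 0.0648 per kilobase, *mt-Nd4l* at 0.0582, *mt-Atp6* at 0.0533 and *mt-Co2* at 0.0279, and they encode subunits of complexes IV, I, V and again IV. The mean level of *mt-Co1* per kilobase was thus 27.1 beside 0.0279 for *mt-Co2*, its partner in the same enzyme. The copies held numbers of reads close to those of the messages, at 930 reads for *mt-Co2* and 930 for *Gm28661*, 2564 for *mt-Co3* and 2749 for *Gm28437*, and 2559 for *mt-Atp6* and 2615 for *Gm10925*. *mt-Nd4l* had more reads in all than *Gm10222*, while the means over cells were in the other order, at 0.0173 and 0.0198 reads per 10000. In rank across cells, message and copy had a Spearman coefficient of 0.747 for *mt-Atp6*, 0.651 for *mt-Co3*, 0.425 for *mt-Co2* and 0.381 for *mt-Nd4l*, over cells that share 1 pool and differ in depth. *mt-Nd3* did not follow this pattern, with 51592 reads against 150 for *Gm28438*. *mt-Atp8*, a small subunit of the ATP synthase, was also low at 0.152 per kilobase although none of its runs is in another annotated transcript. It lies in the 230 bases between *mt-Co2* and *mt-Atp6*, with its end inside *mt-Atp6*, and the copies *Gm28661* and *Gm10925* leave a gap of nearly the same length with no annotated transcript in it. How reads that fit several places were counted is not given in the sources used here, and its part in these levels was not tested.

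**Figure D1:**
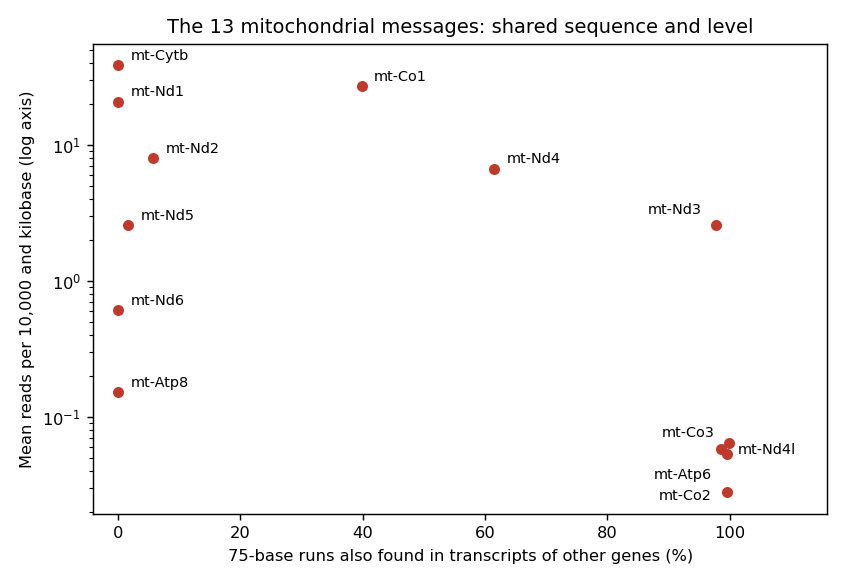
Each point is 1 of the 13 mitochondrial messages, with the share of its 75-base runs that also occur in annotated transcripts of other genes on the x axis (%) and its mean reads per 10000 and kilobase over all cells on the y axis (log axis). 4 of the 5 messages near 100% lie below 0.07 and *mt-Nd3* lies at 2.59, while the messages under 62% reach 38.4, with *mt-Nd6* and *mt-Atp8* as the low ones among them.

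The nuclear genes were well expressed as a group. Their median per-kilobase level was 1.05, and 57 of the 69 were found in more than 50% of the cells. For comparison, 9655 genes were found in at least 10% of cells. Those of them with a single gene length in the annotation had a median of 0.0788. Ordered by complex, the subunits of complex IV had the highest median at 2.39 (11 genes), then complex III at 1.08 (8 genes), complex II at 1.02 (4 genes) and complex I at 0.852 (36 genes). The 7 assembly factors of complex I, which build the enzyme without remaining in it, had a median of 0.0695, close to that of all genes found.

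Complex I is the entry point for electrons from NADH. Its highest nuclear subunits per kilobase were *Ndufa1* at 5.57, *Ndufa2* at 4.51 and *Ndufs8* at 2.80, the last of which holds iron-sulphur clusters. Its lowest were *Ndufb5* at 0.0951, *Ndufs1* at 0.0684 and *Ndufb2* at 0.0131. *Ndufs1*, the largest core subunit, was found in 44.7% of cells (95% interval 41.3 to 48.1%) and *Ndufb2* in 34.4% (31.2 to 37.8%). Lengths here are the union of all annotated exons, and over the longest transcript alone *Ndufs1* stood at 0.208, *Ndufb5* at 0.152 and *Ndufb2* at 0.0169 per kilobase. Assembly factors ranged from 0.410 per kilobase for *Ndufaf8*, 0.279 for *Ndufaf3* and 0.0773 for *Ndufaf2* down to 0.0554 for *Ndufaf7*, 0.0534 for *Ndufaf4* and 0.0530 for *Ndufaf5*. Other genes share sequence or overlap with some of these: 63.2% of the runs of *Ndufaf2* are in other transcripts, and exons of *Mrpl47* on the other strand cover 20.02% of the reference transcript of *Ndufb5*.

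Complex II links the citric acid cycle to the chain by oxidizing succinate and has no mitochondrial subunit. *Sdhd* stood at 1.26 per kilobase, *Sdha* at 1.05 and *Sdhb* at 0.992, whereas *Sdhc*, which with *Sdhd* anchors the enzyme in the membrane, stood at 0.189. *Sdha*, the succinate-oxidizing flavoprotein, was found in 91.1% of cells and *Sdhc* in 46.3%. The kept assembly factors *Sdhaf4* and *Sdhaf2* were at 0.201 and 0.0718 per kilobase.

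Complex III passes electrons to cytochrome c. *Uqcr10*, *Uqcr11* and *Uqcrh*, small subunits, were highest at 4.42, 4.21 and 2.55 per kilobase. *Uqcrc1*, a core protein, stood at 0.913, and the lowest were *Uqcrfs1*, the Rieske iron-sulphur protein, at 0.744 and *Uqcrc2* at 0.386; *Uqcrb* and *Uqcrq* lay between, at 1.07 and 1.09.

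Complex IV reduces oxygen. *Cox6a1* was the highest of all 69 nuclear genes at 10.4 per kilobase, with 7.29 ± 4.78 reads per 10000, a median cell of 6.47 and a highest cell of 27.9. *Cox8a* stood at 7.40 and *Cox6b1* at 5.76, and the lowest were *Cox7c* at 1.71, *Cox6c* at 1.18 and *Cox5a* at 0.532. *Cox4i1*, the regulatory subunit at which ATP acts, was found in the most cells of any nuclear gene, 99.2%, though exons of *Emc8* on the other strand cover 20.13% of its reference transcript. *Ndufa4*, named for complex I and now placed in complex IV, stood at 2.28. *Cox7a2l*, which links complexes III and IV into supercomplexes and whose C57BL/6 allele is known to encode a shortened protein, stood at 2.07 per kilobase and was found in 90.5% of cells. Its level says nothing of the protein.

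**Figure D2:**
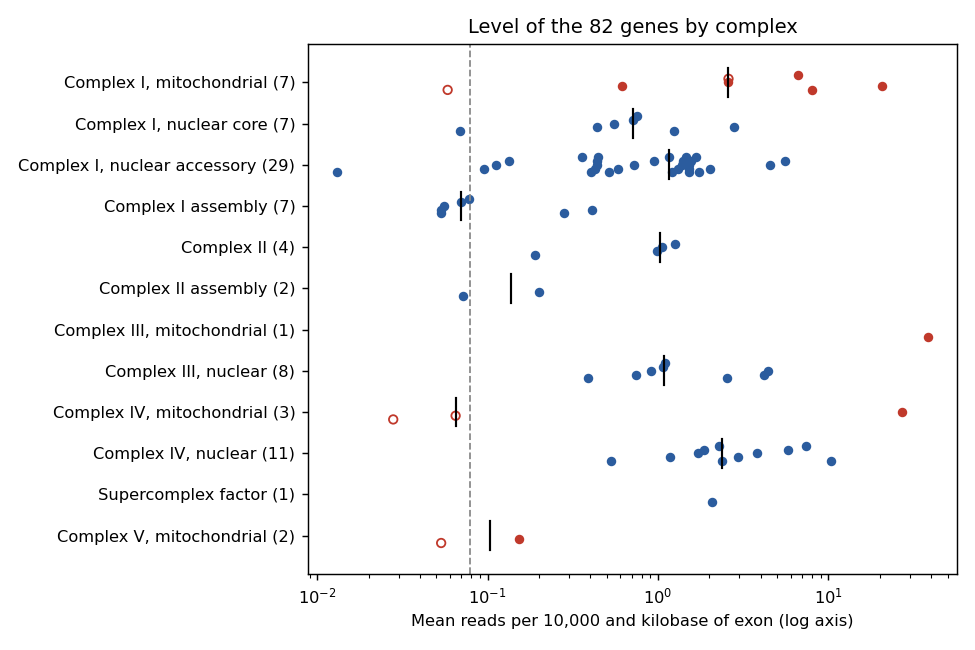
Each point is 1 of the 82 genes, grouped by complex and genome with the number of genes in parentheses, and the x axis gives mean reads per 10000 and kilobase of exon over all cells (log axis). Red points are mitochondrial and blue points nuclear genes, open circles mark the 5 messages with over 97% of runs shared and black bars are medians. The dashed line is the median, 0.0788, of those of 9655 genes that had a single gene length in the annotation. Most nuclear subunits sit to the right of that line, and assembly factors sit near it.

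Several complex IV subunits have a second gene that is used in particular tissues, and LECs read the common gene of each pair. *Cox4i2*, the lung isoform that is raised at low oxygen, gave 0.260% of the reads it shared with *Cox4i1*, which had 249766 itself (95% interval 0.240 to 0.281%). The muscle isoforms *Cox7a1* and *Cox8b* gave 0.305% of the reads shared with *Cox7a2* and 0.185% of those shared with *Cox8a*, and *Cox6b2*, known from testis, gave 1.47% of those shared with *Cox6b1*. The rare isoform was found in 44 cells for *Cox4i2*, 51 for *Cox6b2*, 21 for *Cox7a1* and 10 for *Cox8b*. It exceeded the common gene in 2, 3, 4 and 0 of those cells. *Ndufa4l2*, a hypoxia-induced relative of *Ndufa4*, had no read in any cell, and a count of 0 allows a share of up to 0.356% of cells with a read, which is 3 of the cells and says nothing of expression below that depth. These intervals and limits cover counting error only. In the cells with *Cox4i2*, summed mural markers averaged 0.192 reads per 10000 beside 0.0710 in the others, and in those with *Cox6b2* 0.382 beside 0.0577. The order was the other way for *Cox7a1*, at 0.0527 beside 0.0779, and *Cox8b*, at 0 beside 0.0782, and the part of such RNA was not tested. *Cox6a2*, *Cox7b2* and *Cox8c* were not analysed here.

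Summed over genes, both sets took a like share of a cell's reads. The 13 mitochondrial genes held a median of 1.13% (lowest 0.199%, highest 6.29%), and the 69 nuclear genes held 1.25% (lowest 0.0849%, highest 2.48%). The 5 messages with over 97% of runs shared gave only 1.02 of the summed mitochondrial mean of 129.1 reads per 10000. How reads that fit several places were counted is not given, and its part in the mitochondrial share was not tested. The mitochondrial set includes subunits of ATP synthase, and the nuclear set does not. Relative to their means, the mitochondrial share was the more variable, with 1.29 ± 0.792% against 1.23 ± 0.362% (mean ± SD over cells). Across cells the shares of both sets were nearly unrelated in rank, with a Spearman coefficient of 0.0135, or 0.0293 in the 73.2% of cells with at least 100000 reads. Cells share 1 pool and differ in depth, so these coefficients are descriptions, and both shares are parts of the same total.

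Each set had higher coefficients with some other RNAs, and for the nuclear set these were not only RNAs of mitochondrial proteins. The mitochondrial share went with the share of mitochondrial rRNA (0.678), which is made from the same transcripts. The nuclear share went with the nuclear genes of ATP synthase (0.512), with cytosolic ribosomal protein genes (0.451) and with the mitochondrial ribosome (0.441), and less with the citric acid cycle (0.234) and glycolysis (0.249). For glycolysis the coefficient with the mitochondrial share was -0.157.

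A small set of cells was taken at the low end of the nuclear share, with a cut at 0.5% that no gap marked. The nearest cells on either side had 0.497% and 0.516%. In 28 cells the nuclear share was under 0.5%. In these the mitochondrial share had a median of 3.10% (0.414 to 6.29%), beside 1.12% (0.199 to 5.22%) in the other cells. Other gene groups were low in the same cells: ATP synthase stood at 0.0945% beside 0.412%, cytosolic ribosomal proteins at 2.75% beside 8.41%, the mitochondrial ribosome at 0.136% beside 0.345% and glycolysis at 0.269% beside 0.383%. The median level of dissociation genes was 1.11 beside 0.984 on the natural log scale. Median reads were 255417 beside 355306, and median genes found 3448 beside 4216. Clusters 1 to 5, described further on, held 12, 12, 3, 1 and 0 of these cells. The cells were picked by their nuclear share, so its values are no finding, and whether RNA was lost from them was not tested. The other gene groups followed that share across all cells, so their low values are not independent of the choice. Without them the rank coefficient of both shares was 0.0811, while on the log2 scale over all cells Pearson's coefficient was -0.177.

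**Figure D3:**
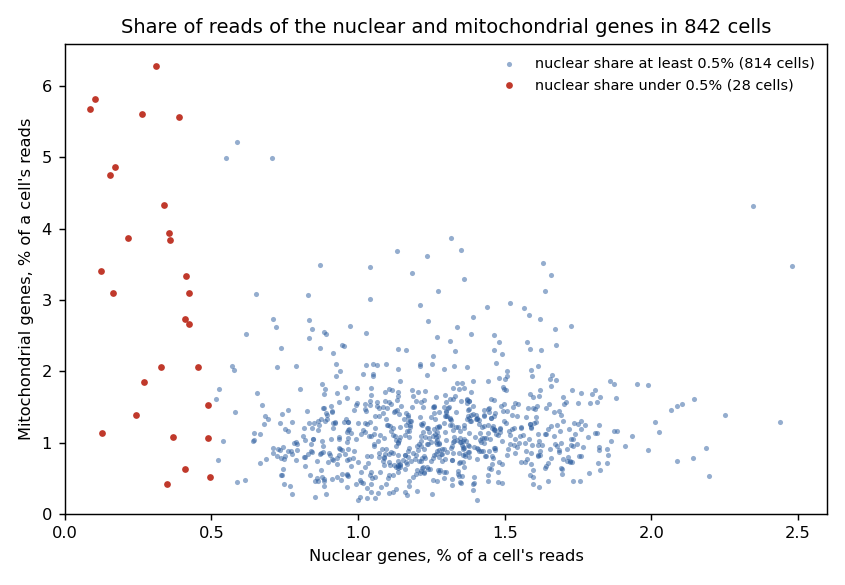
Each point is 1 cell, with the nuclear genes' share of its reads on the x axis (%) and the mitochondrial genes' share on the y axis (%). Red points are the 28 cells with a nuclear share under 0.5%, whose mitochondrial share reaches 6.29%, and the cloud of the other cells shows no slope.

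The same split appeared gene by gene in the 93.9% of cells that could be thinned to 20000 reads each. The 8 mitochondrial messages with under 62% of runs shared had a median pairwise coefficient of 0.401, from 0.0477 for *mt-Atp8* with *mt-Nd6* to 0.602 for *mt-Co1* with *mt-Cytb*. *mt-Cytb* with *mt-Nd1* (0.593) and with *mt-Nd4* (0.589) followed. *mt-Nd6*, alone on its strand, reached at most 0.344, with *mt-Nd5*, its neighbour on the other strand. *mt-Atp8*, on the common strand, reached at most 0.189, with *mt-Co1*. In the thinned cells *mt-Nd6* had a mean of 0.626 reads and *mt-Atp8* 0.0556, beside 88.5 for *mt-Cytb*. The parts of strand and of low counts in these coefficients were not tested. Among nuclear genes the median of 2346 pairs was 0.0551, beside 0.00731 over all pairs of the 9655 genes. Between the mitochondrial and nuclear sets it was -0.0215.

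Within the nuclear genes, pairs of complex IV subunits had the highest median. The median over their 55 pairs was 0.151 and all 55 were above 0, beside 0.0807 for complex II (6 pairs), 0.0588 for complex III (28 pairs) and 0.0568 for complex I (630 pairs). These subunits also had the highest median level and were found in a median of 92.4% of cells, beside 64.7% for complex I, and the part of level in this order was not tested. The 3 genes with the highest median coefficient with other nuclear members, *Cox6c* (0.104), *Cox7b* (0.101) and *Cox6b1* (0.1001), belong to complex IV. The 3 with the lowest were *Ndufaf4* (0.00692), *Ndufaf7* (0.00817) and *Ndufb2* (0.0118), which are also low in level. Low counts can pull such coefficients towards 0, and their part here was not tested.

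Both shares differed with the RNA response to cell dissociation and with depth. Cells were ordered by the mean natural log level of genes known to be induced when tissue is digested and divided into 4 groups of like size. From the lowest to the highest group, the median mitochondrial share was 1.48%, 1.19%, 1.01% and 0.947%, and the median nuclear share was 1.39%, 1.37%, 1.21% and 1.02%. The rank coefficients with that level were -0.321 and -0.434. By total reads, the lowest and highest of 4 groups had mitochondrial shares of 0.980% and 1.34% but nuclear shares of 1.34% and 1.14%, the opposite direction. Median reads also rose from 259214 to 438384 across the groups by dissociation genes, and neither measure's part in the other was tested.

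Clustering gave 5 groups that held 33.8%, 32.5%, 22.9%, 5.70% and 4.99% of the cells, the last of them 48 and 42 cells. None of the 82 genes was among the 2000 genes used for it, but the share of mitochondrial reads had been regressed out, which may narrow mitochondrial differences. Cluster 1 was led by *Igfbp5*, *Clca3a1* and *Apoe*, cluster 2 by *Slco2b1*, *Lyve1* and *Tgfbi*, cluster 3 by *Gm525*, *Aqp1* and *Stab2*, cluster 4 by *Tppp3*, *Cyp4b1* and *Fndc1* and cluster 5 by *Slc41a1*, *Gdf15* and *Plat*. Cluster 1 had 4 of 5 precollecting LEC markers raised, cluster 2 had 3 of 5 Ptx3- capillary markers, cluster 3 had 4 of 4 Ptx3+ capillary markers, cluster 4 had 5 of 5 Ptx3- capillary and 3 of 5 precollecting markers, and cluster 5 had 3 of 6 valve markers.

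The nuclear share hardly differed between clusters. Its medians were 1.26%, 1.26%, 1.22%, 1.30% and 1.26% in clusters 1 to 5, with SDs over cells between 0.310 and 0.380. The mitochondrial share had medians of 1.09%, 1.14%, 1.19%, 0.898% and 1.32%, with SDs between 0.489 and 0.841, so that clusters 4 and 5 lay lowest and highest while their cells overlapped widely (0.390 to 2.62% and 0.507 to 4.32%). Cluster 4 also had the lowest median level of dissociation genes, 0.860 on the natural log scale, and the most reads, 554243, and cluster 5 the highest level, 1.02, and the fewest reads, 273883. The mitochondrial rRNA did not follow the messages in cluster 5: its median share was 0.608%, 0.641%, 0.649%, 0.400% and 0.532% in clusters 1 to 5.

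Members were counted as higher or lower in a cluster at a log2 ratio of mean reads per 10000 (pseudocount 1) of at least 0.3 in size, which is no test. In cluster 1, 1 of 75 members was higher and none lower, beside 3.78% and 4.11% of 5797 genes. In cluster 2 no member passed in either direction, beside 0.883% and 1.31% of 5663 genes. Cluster 3 had 2 higher and 2 lower of 75, beside 5.59% and 5.62% of 5852 genes. Cluster 4 had 3 higher and 5 lower of 75, beside 8.5% and 7.33% of 5964 genes, and cluster 5 had 7 higher and 4 lower of 76, beside 8.48% and 10.1% of 6062 genes. Counted over both sets, these shares are near or under those of all genes, and the median log2 ratio of the nuclear genes lay between -0.03 and 0.03 in every cluster, beside -0.01 to 0.01 for all genes counted. With a pseudocount of 1, members and other genes with means far under 1 read per 10000 pass only on a large change or not at all. With a pseudocount of 0.1 the members past 0.3 numbered 4, 1, 7, 19 and 22 in clusters 1 to 5. The share of all genes was not computed at 0.1, so whether members stay near it there is not known. With nothing regressed out, the mitochondrial median was -0.20 and 0.30 in the clusters matched to 1 and 2.

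Taken alone, 4 of 13 mitochondrial genes were lower in cluster 4, beside 7.33% of all genes, and 2 of 12 were higher in cluster 5, beside 8.48%. These totals include *mt-Co2*, *mt-Co3*, *mt-Atp6*, *mt-Atp8* or *mt-Nd4l*, with means of 0.0173 to 0.0508 reads per 10000. At a pseudocount of 1 such messages could not be counted as lower, and as higher only on a many-fold rise. In cluster 4, *mt-Nd2* had 5.97 ± 5.27 reads per 10000 beside 8.43 ± 7.01 elsewhere (log2 ratio -0.44), *mt-Cytb* 34.4 beside 44.5 (-0.36), *mt-Co1* 33.2 beside 42.4 (-0.34) and *mt-Nd4* 7.30 beside 9.28 (-0.31). In cluster 5, *mt-Cytb* had 57.1 ± 32.2 beside 43.2 ± 29.9 (0.39) and *mt-Co1* 53.2 beside 41.2 (0.36). *mt-Nd2* did not keep step with *mt-Cytb*: over clusters 1 to 5 its mean was 7.10, 8.66, 9.92, 5.97 and 9.09 reads per 10000, while that of *mt-Cytb* was 44.8, 43.5, 42.5, 34.4 and 57.1. In cluster 3 *mt-Nd2* was thus at a log2 ratio of 0.31 and *mt-Cytb* at -0.06, although both are cut from 1 long transcript. In cluster 1 the lowest ratios were those of *mt-Nd2* (-0.29), *Ndufv1* (-0.28) and *mt-Nd1* (-0.26).

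Among nuclear genes, *Cox6c*, a small subunit of complex IV, differed most between the large clusters. Its mean was 5.27 ± 3.22 reads per 10000 in cluster 1, 4.07 ± 3.11 in cluster 2 and 3.19 ± 2.49 in cluster 3, with log2 ratios of 0.43, -0.05 and -0.39. The cells overlapped, and *Cox6c* was found in 99.3% of cluster 1 (95% interval 97.5 to 99.9%) and 90.7% of cluster 3 (85.7 to 94.4%). *Ndufc2*, an accessory subunit of complex I, was higher in cluster 3 at 2.09 ± 1.99 beside 1.35 ± 1.47 elsewhere (0.39), *Ndufv1*, which binds NADH, stood at 1.85 beside 1.34 (0.29) and *Ndufa7* was lower at 2.17 beside 2.96 (-0.32). *Ndufa2* stood at 2.10 beside 2.72 (-0.26). Subunits of complex I thus lay on both sides within cluster 3.

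In cluster 5, *Cox7c* had the largest ratio of any member, at 3.15 ± 2.56 reads per 10000 beside 1.87 ± 1.56 (0.53), and of the nuclear genes *Ndufa4* followed at 4.27 beside 3.08 (0.37), *Cox4i1* at 7.59 beside 5.81 (0.34) and *Cox7a2* at 3.67 beside 2.73 (0.32). These 4 are subunits of complex IV, yet *Cox7b*, of the same complex, was lower at 1.52 beside 2.30 (-0.39). Lower too were *Ndufs3* at 0.480 beside 0.977 (-0.42) and *Ndufa8* at 0.979 beside 1.46 (-0.31), subunits of complex I. The assembly factor *Sdhaf2* was higher at 0.872 beside 0.498 (0.32). Cluster 4 differed from it in *Ndufa4*, which stood at 2.12 ± 2.48 beside 3.205 ± 2.87 (-0.43), and had *Ndufb7* at 2.79 beside 1.93 (0.37), *Ndufv3* at 1.66 beside 1.12 (0.33) and *Ndufs7* at 2.80 beside 2.09 (0.30). With 48 and 42 cells, these are the least certain of the ratios. By complex, the median of nuclear complex IV was -0.10 in cluster 4 and 0.13 in cluster 5, that of complex II 0.16 in cluster 4 and that of the complex I core -0.13 in cluster 5. In cluster 2 the extremes were *Uqcr10* (0.10), *Ndufb10* (0.10) and *Ndufa4* (0.09) against *Ndufb3* (-0.17), *Ndufa10* (-0.16) and *Ndufb8* (-0.15).

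**Figure D4:**
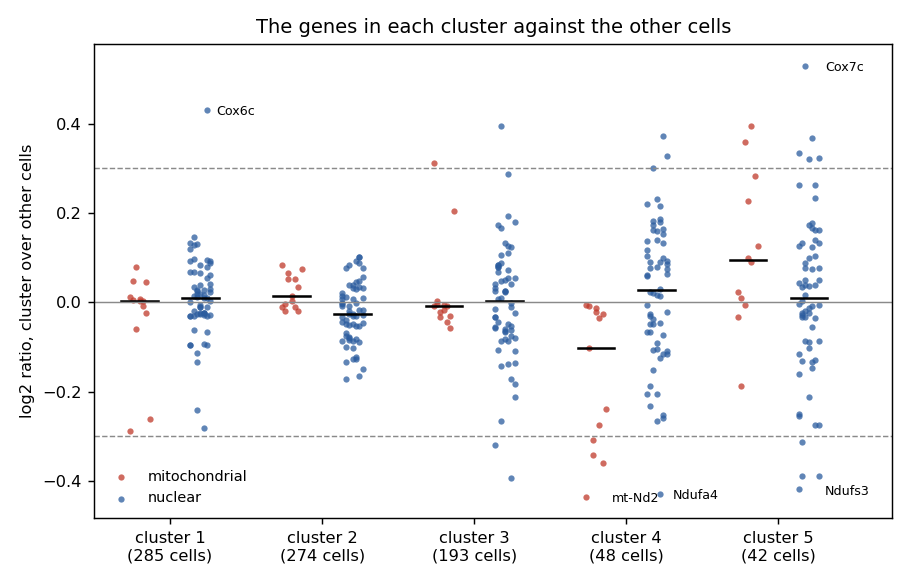
Each point is 1 gene, with its log2 ratio of mean reads per 10000 (pseudocount 1) in a cluster over the other cells on the y axis and the 5 clusters, with their cells counted, on the x axis. Red points are mitochondrial and blue points nuclear genes, black bars are medians and dashed lines mark 0.3 and -0.3. Nuclear medians stay between -0.03 and 0.03, and the widest spread is in clusters 4 and 5.

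Other genes of the pathway were taken from prepared lists. Of the nuclear ATP synthase genes, 16 of 19 were found in at least 10% of cells, with a median of 0.920 per kilobase led by *Atp5b*, a catalytic subunit, at 2.33, and so close to complexes I to III. The mitochondrial ribosome (77 of 82) had a median of 0.163, the citric acid cycle (17 of 17) 0.178 and glycolysis (14 of 20) 0.374, with *Gapdh* at 2.66. The medians leave out *Atp5o* of the ATP synthase and *Aldoa* of glycolysis, whose symbols had no single gene length in the annotation. Assembly factors outside the prefixes (26 of 31 in the matrix) had a median of 0.0612, close to the 0.0695 of those within complex I. Factors that control mitochondrial genes were low, with a median of 0.0489 over the 11 of 19 found: *Yy1* and *Nrf1*, which bind promoters of respiratory genes, were found in 55.7% and 41.9% of cells, *Tfam*, which packages mitochondrial DNA, in 21.6%, and the coactivator *Ppargc1a* in 1.78%. Uncoupling and antioxidant genes (20 of 20) had a median of 0.436. In every cluster the median log2 ratios of these 7 lists lay within 0.10 of 0, glycolysis in cluster 1 being the farthest. The dissociation genes had a median of -0.16 in cluster 4.

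The promoters of the nuclear genes were searched for letters known from binding sites of activators. RefSeq windows of 300 bases, 250 before and 50 after the start (GRCm38.p6), were found for 59 of the 69, and each motif was sought on both strands. The NRF1 letters GCGCATGC, which partly overlap their own other strand, stood in 9 of 59 windows (15.3%) beside 2.80% of 27025 promoters of all genes. The ETS letters CCGGAAG, bound by the factor GABP, stood in 14 (23.7%) beside 9.12%, and the YY1 letters AAGATGGC in 8 (13.6%) beside 2.88%. The ERR letters AAGGTCA were in 4 (6.78%) beside 4.66% and the TATA letters TATAAA in 4 (6.78%) beside 14.2%. Of the 59 windows, 28 held none of the 5 motifs. A match is a description of letters and no site of binding, and the shares were not tested.

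The YY1 letters stood out by position. All 8 lay on the strand of the gene, 10 to 38 bases after the start, and in 7 of the 8 the ATG within them was an annotated start codon. All 8 belong to complex I, 7 as subunits and *Ndufaf8* as an assembly factor, and so do 39 of the 59 windows. They are shown as 30 bases each with the YY1 letters in capitals, in order of distance from the start: *Ndufaf8* at chr11:120098933-120098962 (plus), *Ndufc1* at chr3:51408915-51408944 (minus), *Ndufa3* at chr7:3617384-3617413 (plus), *Ndufs7* at chr10:80249462-80249491 (plus), *Ndufa9* at chr6:126849097-126849126 (minus), *Ndufs6* at chr13:73328433-73328462 (minus), *Ndufs4* at chr13:114388045-114388074 (minus) and *Ndufb8* at chr19:44555393-44555422 (minus).
Ndufaf8: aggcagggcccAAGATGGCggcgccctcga
Ndufc1: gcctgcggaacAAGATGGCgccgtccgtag
Ndufa3: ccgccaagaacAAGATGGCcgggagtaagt
Ndufs7: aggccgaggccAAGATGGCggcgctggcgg
Ndufa9: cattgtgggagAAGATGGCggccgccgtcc
Ndufs6: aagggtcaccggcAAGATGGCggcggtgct
Ndufs4: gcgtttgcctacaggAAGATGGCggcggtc
Ndufb8: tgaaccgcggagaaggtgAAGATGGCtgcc

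The promoter of *Cox6a1*, the highest nuclear gene per kilobase, is shown because it holds both other motifs. In the 180 bases before its start (chr5:115348959-115349138, minus strand), capitals mark the NRF1 letters, which occur here on both strands 2 bases apart, and the ETS letters on the other strand, 16 bases before the start.
Cox6a1: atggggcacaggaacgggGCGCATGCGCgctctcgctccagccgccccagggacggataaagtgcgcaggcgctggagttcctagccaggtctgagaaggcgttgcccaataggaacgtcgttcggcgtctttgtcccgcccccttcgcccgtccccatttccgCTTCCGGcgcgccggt

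**Figure D5:**
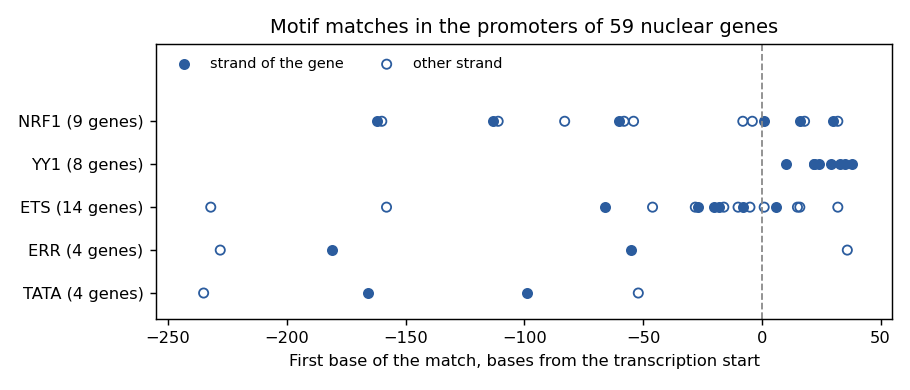
Each circle is the first base of 1 motif match in the promoters of 59 nuclear genes, by distance in bases from the transcription start on the x axis, with a row for each motif. Filled circles lie on the strand of the gene and open circles on the other strand. The YY1 matches of 8 genes lie from 10 to 38 bases after the start. The ETS matches lie from -66 to 32, apart from 1 of *Ndufb6* at -232 and 1 of *Sdhaf2* at -158. The other motifs are spread more widely.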

How the data were processed

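Smart-seq3 data of 842 sorted adult cells from 1536 wells were used, in clusters of 285, 274, 193, 48 and 42. The authors aligned reads with STAR to mm10, counted them per gene with featureCounts and dropped those below 2000 genes or above 10% in mitochondrial reads. The deposited table holds natural log values, ln(1 + reads per 10000) (called log2 in the methods, but only the natural log sums to 10000 in each cell), and whole reads were recovered from them (100% of values within 0.01). Annotation, strand and multi-mapping settings are not given in the sources used here.

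Members and lists were chosen with earlier results of these data known. Clustering used Seurat 5.3.0 in R 4.3.3 with 2000 variable genes, 15 components, and total reads, mitochondrial share, dissociation and ribosomal scores regressed out, at the lowest resolution giving 5 clusters (0.5). Ratios were read for genes with a read in 30% of cells on either side. Exon lengths, overlaps and transcripts came from GENCODE M21 on GRCm38, and a reference transcript is the longest with a CCDS tag. Intervals are exact Clopper-Pearson intervals at 95%. Named genes were all mitochondrial members, the 3 highest and 3 lowest nuclear genes per kilobase in each complex, isoform pairs, the genes around the 10% limit, *Cox7a2l*, and the 3 extremes of each cluster and of the correlations; other genes past 0.3, other subunits and regulators given with a value were named after their values were seen. Steps were tested on simulated data. The values of 1 gene that the rule would name are not reported here.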

Additional observations from a re-analysis of the deposited data

How the results depend on the processing

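Of 170 alternative values for 40 results, 27 moved and the others stayed within the limits given next. Of the 27, 4 changed sign, each from a value within 0.03 of 0: the coefficient of both shares, the mitochondrial median of cluster 1 and the nuclear medians of clusters 2 and 3. A share moved when it left its 95% interval, a median share or level when it changed by over 10%, a count when it changed by over 1.5 times, and a log2 ratio or coefficient when it changed by over 0.1. The nuclear median share was 0.892% without genes whose exons overlap another gene. The coefficient of both shares was -0.177 by Pearson on the log2 scale, and the median within all 13 mitochondrial messages was 0.324 with all reads of all cells in place of 0.124. Isoform shares per kilobase were 0.510% for *Cox4i2*, 0.942% for *Cox6b2*, 0.536% for *Cox7a1* and 0.318% for *Cox8b*, and as means over cells 0.524% for *Cox4i2*, 0.342% for *Cox7a1* and 0.138% for *Cox8b*. With nothing regressed out, the mitochondrial median log2 ratio was -0.20, 0.30 and -0.25 in the clusters matched to 1, 2 and 4, and the nuclear median 0.14 and -0.18 in those matched to 2 and 3, the match to cluster 2 holding 40.9% of its cells. With only the mitochondrial share not regressed out, clusters 1 and 2 were both matched to the same 480 cells. Their values there are identical and count among those that stayed, but they describe neither cluster alone. With a pseudocount of 0.1 the mitochondrial median was -0.25 in cluster 4 and 0.22 in cluster 5, and 4, 1, 7, 19 and 22 members passed 0.3 in clusters 1 to 5 in place of 1, 0, 4, 8 and 11. By a difference of natural log values of 0.2, 2 passed in cluster 1 and 5 in cluster 4. The shares of all genes passing under these 2 settings were not computed. The nuclear median per kilobase was 1.31 with the longest transcript. The mitochondrial one was 12.9 in place of 2.56 over 13 when shared bases were left out of the length, over the 8 messages with under 62% of runs shared. Reads on the shared bases were still counted, which raises that value, and at full length the same 8 had a median of 7.32. On the strand of the gene only, the ETS letters were in 10.2% of windows. The causes were not tested. No paired analysis was possible because the cells form 1 group without replicates. The alternatives on shared bases, run length (5 messages over 90% also with 50 and 100 bases) and the 28 cells were chosen after seeing the data. Reads per cell limit what shallow cells show, and a gene not found may have been missed.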
